A study of Mus musculus with 16 samples.

Results

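Podxl, Ehd3 and Npnt, 3 genes known from the renal glomerulus, were followed across the right kidneys of 5 male mice, wild-type littermates of each other. All probes that the platform annotation names for these genes were taken, which gave 4 probes among 20205, with 1 probe for Podxl, 2 for Ehd3 and 1 for Npnt. The 3 genes stand among 9669 named on the array. They were selected on the comparison of the 5 kidneys on these same arrays, in which the probe of Podxl, that of Npnt and the first of Ehd3 were called and the second of Ehd3 was not. Their values are therefore given as descriptions and without a test.

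The mice, W1 to W5, carried a mixed C57BL/6 and 129Sv background. Their age was 88 ± 2 days, and death fell between 8 and 10 am according to the labels. Each of the 16 two-colour arrays paired the kidney of W5 in one channel with that of a littermate, W1 to W4. Every mouse had 4 arrays, 2 with the mouse in channel 1 and 2 with W5 there, so W5 is a shared reference from 1 animal. A mouse's 4 arrays repeat the hybridisation, and nothing in the labels says that they came from separate extracts. Spreads and p-values over arrays therefore concern these RNA samples, and no group holds more than 1 animal.

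The glomerulus filters blood through a fenestrated endothelium, a basement membrane and the interlocking foot processes of podocytes. Podxl encodes podocalyxin, a sialomucin of the CD34 family that gives podocyte surfaces their negative charge and is also made by vascular endothelium. Ehd3 encodes an EH-domain ATPase of endocytic recycling that, within the kidney, marks glomerular endothelial cells. Npnt encodes nephronectin, a matrix protein that binds integrin alpha-8 beta-1 and is found in the glomerular basement membrane and around tubules.

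Values are log2 ratios of a mouse to W5 or the reverse, because the sources used here do not say which channel is the numerator. The sign was turned on arrays with W5 in channel 1, and positive values lie on the side of W5 on which Podxl lay on average. All signs could be reversed together, so no kidney is called higher or lower in RNA. A fitted value is a mouse's ratio after a dye term, the part of a ratio that follows the channel and not the kidney. Its standard error (SE) is limma's moderated one over n = 4 arrays, and the range is the highest minus the lowest fitted value among the kidneys, counting W5 as 0. A bulk ratio cannot tell fewer cells of a type from less RNA per cell. The label of glomerular genes could not be checked against levels, since ratios hold none.

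Podxl had the widest spread of the 3 genes and set W1, W2 and W4 apart from W3 and W5. In W1 its 4 arrays read 0.39, 0.52, 0.29 and 0.42. In W2 they read 0.71, 0.71, 0.53 and 0.79. The arrays of these mice all lay on the same side of W5. In W3 the arrays read 0.06, 0.22, -0.26 and 0.14, on both sides of 0. In W4 they read 0.17, 0.54, 0.23 and 0.92, the widest scatter of the 4 mice for this gene. In all, 15 of 16 arrays were positive, and the exception was array 3 of W3.

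The fitted values of Podxl from W1 to W4 were 0.40 ± 0.08 (SE), 0.68 ± 0.08, 0.04 ± 0.08 and 0.47 ± 0.08. The range was 0.68, or 1.61-fold, wider than in 98.1% of the 15715 probes tested. The kidneys thus ordered as W2, W4, W1, W3 and W5. W2 exceeded W4 by 0.22 ± 0.12 and their arrays overlapped, and W4 exceeded W1 by 0.06 ± 0.12, again with overlap. The step from W1 to W3 was 0.37 ± 0.12, and there the arrays did not overlap once the dye term was taken out. W3 and W5 lay 0.04 ± 0.08 apart, within the error of the fit. Without mouse W2 the range was 0.47.

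**Figure D1:**
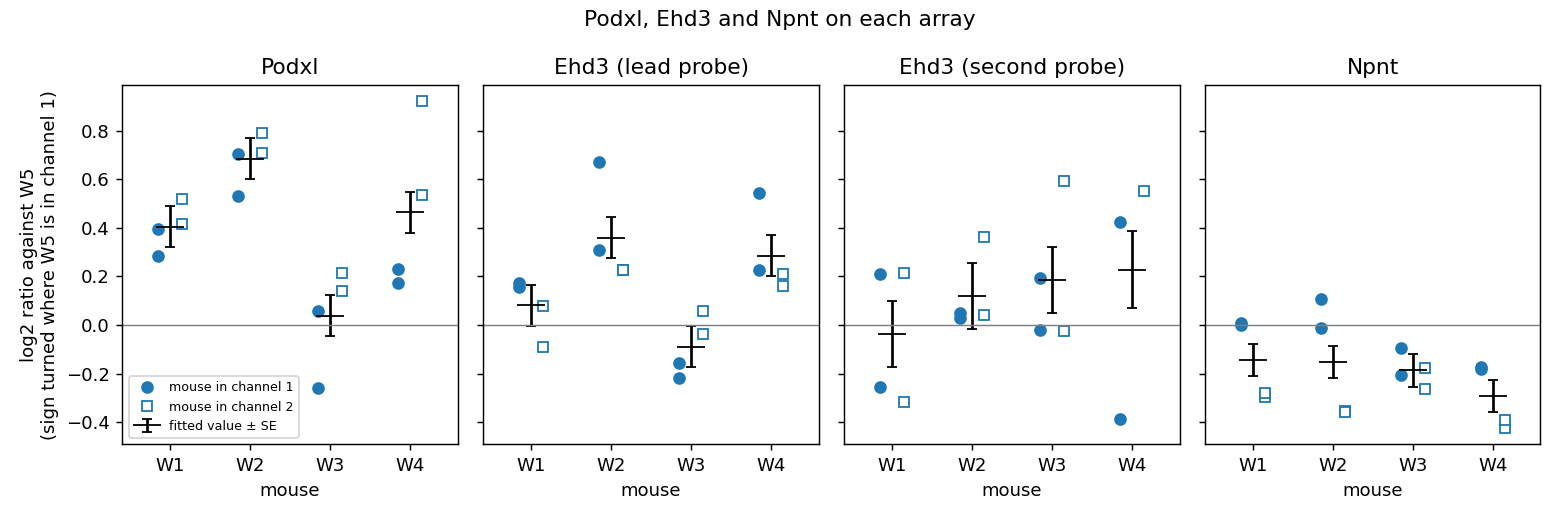
Log2 ratio against W5 (vertical axis) on each array of W1 to W4 for the 4 probes, with filled points for arrays holding the mouse in channel 1, open squares for the mouse in channel 2, and black bars for the fitted value ± SE. Podxl lies between -0.26 and 0.22 in W3 and between 0.17 and 0.92 in the other mice, while all Npnt arrays with the mouse in channel 2 lie below 0.

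Ehd3 was read by both of its probes, which gave different pictures. The lead probe, the one with values on all 16 arrays, lay on the positive side in W2 and W4 and near W5 in W1 and W3. Its arrays read 0.17, 0.08, 0.16 and -0.09 in W1, and 0.31, 0.23, 0.67 and 0.23 in W2. They read -0.15, -0.04, -0.22 and 0.06 in W3, and 0.54, 0.21, 0.23 and 0.16 in W4. All 8 arrays of W2 and W4 were positive, while 3 of 4 arrays of W3 were negative.

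The fitted values of the lead Ehd3 probe from W1 to W4 were 0.08 ± 0.08, 0.36 ± 0.08, -0.09 ± 0.08 and 0.29 ± 0.08. Its range of 0.45, or 1.36-fold, was wider than in 89.7% of probes, and it ran from W2 to W3 with W5 in between. W2 and W4 differed by 0.07 ± 0.12, and their arrays overlapped. W4 stood 0.21 ± 0.12 from W1, without overlap of the arrays after the dye term. W1 lay 0.08 ± 0.08 from W5, and W5 lay 0.09 ± 0.08 from W3, so these steps were about the size of their errors. In the extreme pair, W2 exceeded W3 by 0.45 ± 0.12.

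The second Ehd3 probe had 15 values and did not show this order. Its arrays read 0.21, -0.32, -0.25 and 0.22 in W1, and 0.05, 0.36, 0.03 and 0.04 in W2. In W3 they read -0.02, -0.02, 0.20 and 0.59, and the 3 values of W4 were 0.42, 0.55 and -0.39. Arrays of the same mouse fell on both sides of W5 in W1, W3 and W4. The fitted values were -0.04 ± 0.14, 0.12 ± 0.14, 0.19 ± 0.14 and 0.23 ± 0.16 in W1 to W4, and the arrays of every pair of mice overlapped. The technical SD, the residual spread of a probe's arrays, was 0.31 here and 0.16 for the lead probe. That of the second probe exceeded 88.6% of probes and that of the lead probe 27.1%. Over the 15 arrays that both probes share, their r was 0.15. The range of the second probe was 0.26, and 0.52 without array 3 of W4, where that mouse lay at 0.49.

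The signal behind these probes can be gauged only indirectly. Some deposited values equal log2 of a ratio of small whole numbers, which happens when few intensity units lie behind a spot. Within 2e-06, and after subtracting the most frequent value of each array, 30.7% of all values were ratios of whole numbers up to 100, against 0.566% when the values were shifted by 0.0001. Of the second Ehd3 probe this held for 4 of 15 values, or 26.7%, which is under the share of all values. It held for 1 of 16 values each of the lead Ehd3 probe, of Podxl and of Npnt. Whether signal bears on the difference between the Ehd3 probes was not tested.

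Npnt varied least among the mice and lay on the negative side of W5 in all of them. Its arrays read 0.01, -0.30, -0.001 and -0.28 in W1, and -0.01, -0.35, 0.11 and -0.36 in W2. They read -0.10, -0.27, -0.21 and -0.18 in W3, and -0.17, -0.42, -0.18 and -0.39 in W4. Of 16 arrays, 14 were negative. The arrays split by orientation more than by mouse, with 8 of 8 negative where the mouse was in channel 2 and 6 of 8 where it was in channel 1.

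The fitted values of Npnt from W1 to W4 were -0.14 ± 0.07, -0.15 ± 0.07, -0.19 ± 0.07 and -0.29 ± 0.07. The range of 0.29, or 1.22-fold, exceeded that of 64.1% of probes, and among W1 to W4 alone the values spanned 0.15. W5 lay at one end, 0.14 ± 0.07 from W1. W1 and W2 were 0.01 ± 0.09 apart, W2 and W3 0.03 ± 0.09, and W3 and W4 0.10 ± 0.09, and the arrays of each of these neighbouring pairs overlapped. The technical SD of Npnt was 0.083, among the lowest on the arrays, since only 1.04% of probes had a lower one. Without mouse W4 the range was 0.19.

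**Figure D2:**
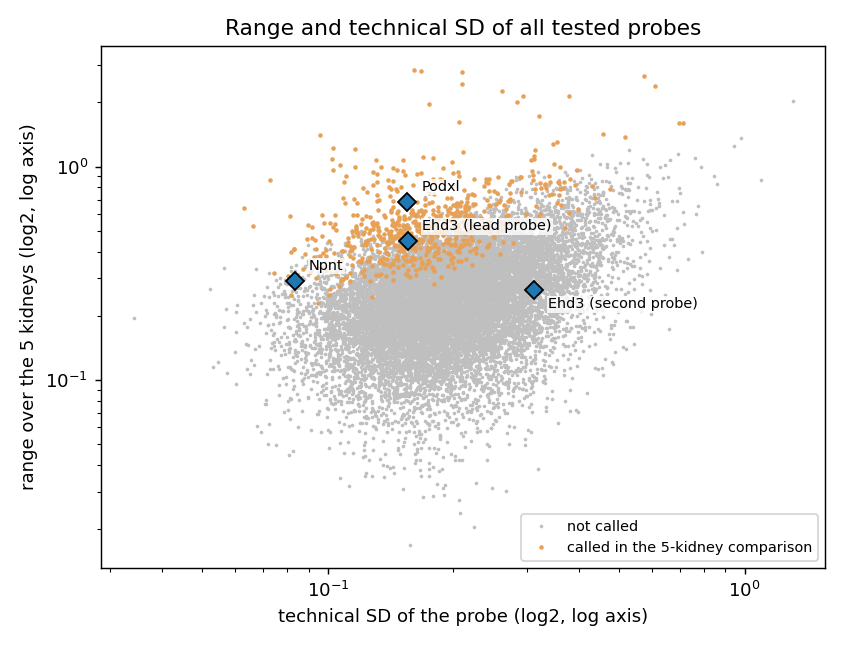
Range over the 5 kidneys (vertical, log2, log axis) against technical SD (horizontal, log2, log axis) for the 15715 tested probes, with called probes in orange and the 4 probes of Podxl, Ehd3 and Npnt as diamonds. Podxl stands high at 0.68, the lead Ehd3 probe at 0.45, and Npnt at a range of 0.29 lies at the quiet end, while the second Ehd3 probe has a technical SD of 0.31.

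The dye term mattered unequally. It was -0.13 for Podxl, 0.05 for the lead Ehd3 probe, -0.09 for the second and 0.13 for Npnt, against a median size of 0.068 over all probes. For Npnt it was close in size to the fitted values of W1 and W2. The mean turned ratio of Npnt was -0.069 over the 8 arrays with the mouse in channel 1 and -0.32 over the 8 with the mouse in channel 2. For Podxl these means were 0.26 and 0.53, and for the lead Ehd3 probe 0.21 and 0.10. In W1, W2 and W4 the deposited ratios of Podxl had opposite signs in the 2 orientations. In W1 their means were 0.34 and -0.47, in W2 0.62 and -0.75, and in W4 0.20 and -0.73. In W3 they were -0.10 and -0.18, which have the same sign. The deposited means of Npnt had the same sign in W1, at 0.004 and 0.29, and in W2, at 0.049 and 0.36, and opposite signs in W3, at -0.15 and 0.22, and in W4, at -0.18 and 0.41.

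**Figure D3:**
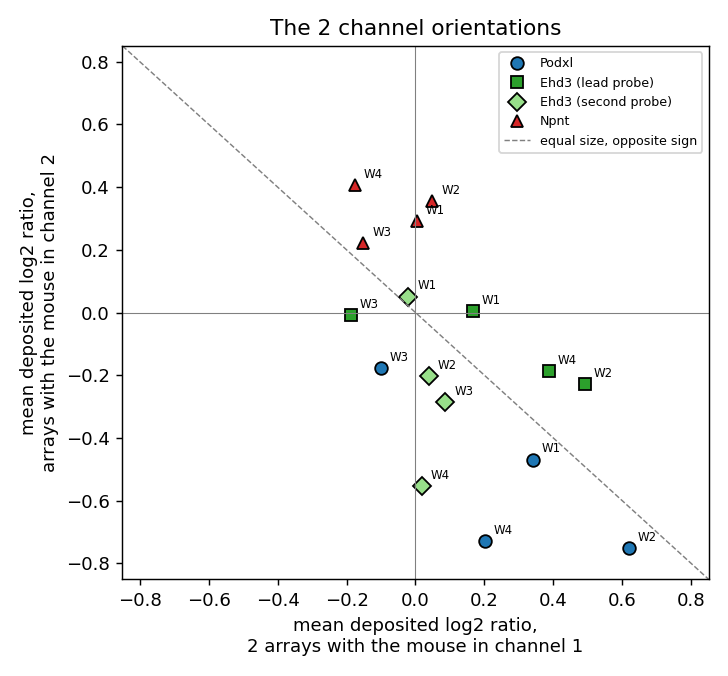
Mean deposited log2 ratio of the arrays with the mouse in channel 1 (horizontal) and in channel 2 (vertical), 1 point per probe and mouse, with 2 arrays behind a mean except 1 for W4 of the second Ehd3 probe in channel 2. Points on the dashed line have equal sizes and opposite signs. Podxl in W1, W2 and W4 and the lead Ehd3 probe in W2 and W4 lie in the lower right, and all 4 Npnt points lie above 0 on the vertical axis.

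The other glomerular genes on the array were then counted, without Podxl, Ehd3 and Npnt, in the limma F test of whether any of the 5 kidneys differed. Across all probes this test called 4.00% at an adjusted p under 0.05, and across named genes, with 1 lead probe each, 4.2%. Of 82 further genes listed for podocytes, glomerular endothelium, mesangium and the glomerular basement membrane, 38 had a probe and 32 had enough values. The test called 7 of the 32. Their median range was 0.28, against 0.23 for all 8005 named genes. With W5 set against its littermates, where 0.299% of all probes were called, 1 of the 32 was called, namely Fabp4. Among W1 to W4 alone, where 0.700% were called, it was 3, namely Esm1, Emcn and Egfl7. These lists and those below were chosen with earlier results of these data known, so their counts are descriptions.

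Of 32 further podocyte genes listed, 10 had a probe and 5 had enough values, and these 5 did not show the order of Podxl. Of the 5, 0 were called by limma, with 3 at an unadjusted p under 0.05, which 1460 of the 8005 named genes also had. The podocyte genes without enough values could not be examined. Synpo, whose product synaptopodin binds actin in foot processes, lay at -0.24, -0.05, -0.11 and -0.15 in W1 to W4 (limma adjusted p = 0.436). Ptpro, the podocyte receptor phosphatase GLEPP1, lay at 0.34, 0.11, -0.05 and -0.02 (adjusted p = 0.242). Vegfa, which podocytes secrete to sustain the glomerular endothelium, lay at 0.08, 0.18, -0.10 and -0.22 (adjusted p = 0.172). Nes, the intermediate filament nestin, lay at 0.19, 0.06, 0.05 and 0.25, and Rhpn1 at -0.05, 0.10, -0.21 and -0.17, with adjusted p = 0.155 and 0.300. The order of Podxl, with W2 first and W5 last, was shown by none of these 5. Nphs1 and Wt1, which help define podocytes, are not analysed here.

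Of 8 genes of the glomerular endothelium list 5 were called, and 4 of these 5 had the order of Ehd3 in that W2 and W4 were the most positive kidneys. Slc7a7, of the proximal tubule list, had this order too. How many of all named genes had it was not counted. Esm1, the endothelial proteoglycan endocan, lay, from W1 to W4, at 0.14 ± 0.08, 0.54 ± 0.08, 0.04 ± 0.08 and 0.74 ± 0.08 (limma adjusted p = 1.45e-05). Emcn, the sialomucin endomucin, lay at 0.03, 0.51, 0.04 and 0.59 (adjusted p = 0.00102). Egfl7, a secreted endothelial protein, lay at 0.06, 0.45, -0.09 and 0.26 (adjusted p = 0.00254), close to the lead Ehd3 probe in every mouse. Cyp26b1, which breaks down retinoic acid, lay at -0.13, 0.29, 0.05 and 0.53 (adjusted p = 0.00967). Fabp4, a fatty acid binding protein of capillaries and adipocytes, lay on the negative side throughout, at -0.47, -0.67, -0.64 and -0.31 (adjusted p = 3.80e-05). Tmem204, Pi16 and Flt1 were not called, but a second Flt1 probe was, at 0.12, 0.46, -0.12 and 0.45 (adjusted p = 0.00393). Against W5 alone, limma called 3 of the 8 genes on the positive side in W2, where 1.11% of all probes were, and 3 in W4, where 1.21% were. On the negative side it called Fabp4 in W1, W2 and W3, where 0.255%, 1.23% and 0.267% of all probes were.

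**Figure D4:**
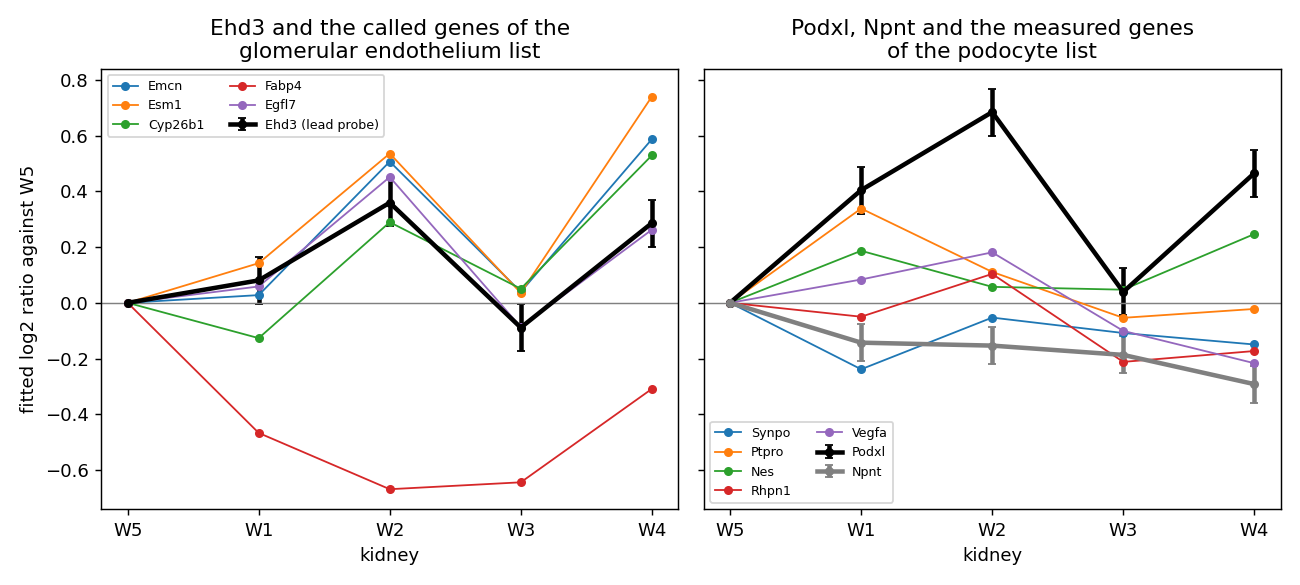
Fitted log2 ratio against W5 (vertical) in the 5 kidneys, W5 being 0. On the left the lead Ehd3 probe (black, ± SE) is drawn with the 5 called genes of the glomerular endothelium list, and on the right Podxl (black) and Npnt (grey, both ± SE) with the 5 measured podocyte genes. Esm1, Emcn, Egfl7 and Cyp26b1 lie with Ehd3 on the positive side in W2 and W4. Podxl reaches 0.68 in W2 and was selected on these values, so its height above the podocyte genes is no result.

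Of 8 mesangial genes 1 was called, Fhl2, a LIM-domain cofactor, at 0.22, 0.49, -0.17 and 0.50 (limma adjusted p = 0.00220). Cspg4, the pericyte proteoglycan NG2, had a range of 0.84 but a technical SD of 0.31 and was not called (adjusted p = 0.0592). Of 11 genes of the basement membrane and its receptors 1 was called, Tinagl1, a secreted matrix protein, at -0.37, -0.13, -0.04 and -0.24 (adjusted p = 0.0134). Laminin beta-2, encoded by Lamb2, lay at 0.06, 0.26, -0.0003 and 0.22 and was not called (adjusted p = 0.123). The integrin subunit genes Itga3 and Itgb1 had ranges of 0.038 and 0.074, the narrowest of the 11.

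Relatives and partners of the 3 genes were mostly not called. Of 5 measured partners and relatives of podocalyxin 0 were called, with 1 at an unadjusted p under 0.05. Cd34 lay at -0.005, 0.20, -0.03 and 0.27 (limma adjusted p = 0.176), and Ezr, the ezrin that ties podocalyxin to actin, ranged over 0.17. Of 9 EHD relatives and partners 0 were called, also with 1 at an unadjusted p under 0.05. Among the relatives, Ehd4 lay at 0.05, 0.28, 0.03 and 0.21 (adjusted p = 0.0920), and its second probe at 0.24, -0.05, -0.01 and 0.66, which was called (adjusted p = 0.0133). Ehd1 and Ehd2 ranged over 0.34 and 0.18. EHD genes resemble each other in sequence. Whether a probe of one also reads another was not tested, since no probe sequences were available.

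Of 8 measured partners and relatives of nephronectin 1 was called, the same Egfl7 as above. Fras1, a basement membrane protein, stood apart in W4 at -0.33, against 0.08, 0.05 and 0.05 in W1 to W3 (limma adjusted p = 0.0622). Npnt was most negative in W4 too, at -0.29, but only 0.10 ± 0.09 from W3, and the median of the list in W4 was 0.01. A link of Npnt to Fras1 was not tested. Fn1, fibronectin, had a lead probe at 0.03, 0.37, 0.02 and 0.08 that was not called (adjusted p = 0.357) and a second that was, at 0.26, 0.40, 0.11 and 0.31 (adjusted p = 0.00543). Integrin beta-1 was not called by any of its 5 probes, and Itga8, the partner of Itgb1 in the receptor of nephronectin, is not analysed here.

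Markers of other kidney cells were counted in the same test. Of 16 general endothelial and vessel wall genes 5 were called, Fbln5, Esm1, Emcn, Egfl7 and Mgp, and of the 16 fitted values 14 were positive for W2, 14 for W4, 11 for W1 and 8 for W3. Their medians were 0.04, 0.21, 0.01 and 0.25 in W1 to W4. Of all 8005 named genes, 4243 were positive for W2, 4080 for W4, 3732 for W1 and 4206 for W3. Esm1, Emcn, Egfl7 and Flt1 also stand in the glomerular endothelium list, so the lists are not independent. Fbln5, an elastic fibre protein, lay at 0.70, 1.22, 0.48 and 1.21. Of 17 proximal tubule genes 8 were called, and the medians of the list were 0.05, -0.05, -0.02 and -0.07. The called genes went both ways. The organic anion transporter gene Slc22a7, with the widest range, lay at -0.05, -0.53, 0.02 and -0.50, and Slc13a3, a dicarboxylate carrier, at 0.07, -0.27, 0.06 and -0.43. Gramd1b lay at -0.31, -0.18, -0.21 and -0.46, and Slc5a1 at -0.26, -0.43, -0.19 and -0.34. Aqp1, a water channel, lay at -0.29, 0.17, -0.22 and -0.30. On the other side, Slc7a7, an amino acid transporter, lay at 0.21, 0.39, 0.03 and 0.31, and Slc17a3 at 0.52, 0.22, 0.23 and 0.26. Ass1, an enzyme of arginine synthesis, lay at 0.23, 0.33, 0.01 and 0.20. Its limma adjusted p was 0.0492, and it was called in 9 of 30 alternative settings.

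Of 10 genes of the loop of Henle, distal tubule and collecting duct 5 were called, and the medians of the list were -0.04, -0.05, -0.06 and -0.27. Of 8 adipocyte genes 6 were called, with medians of -0.20, -0.35, -0.31 and -0.27. Of 12 leukocyte genes 0 were called by limma, with 4 at an unadjusted p under 0.05, and of 2 red blood cell genes 0, with 0 at that p. The part of these cell types in the values of Podxl, Ehd3 and Npnt was not tested.

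Likeness was measured as Pearson's r over the 16 arrays after the dye term was taken out, across 8777 named probes for Podxl and Npnt and 8776 for Ehd3. All points share the W5 reference and the noise of each array, so these values are descriptions. Podxl and the lead Ehd3 probe had an r of 0.64 with each other, while Npnt had an r of 0.14 with Podxl and 0.21 with Ehd3. The closest genes to Podxl were Cxcl12, a chemokine (r = 0.91), the isocitrate dehydrogenase gene Idh1 (0.90), Adgrl2 (0.87), Utrn (0.87) and the glycosyltransferase gene Ugt3a2 (0.85). Cxcl12 lay at 0.24, 0.40, -0.06 and 0.29 in W1 to W4, and Idh1 at 0.38, 0.50, -0.04 and 0.30. Both were chosen by their r with Podxl on these same arrays, so a likeness of their values to those of Podxl is no separate result. In Podxl, W1 lay nearer to W4 than to W3, and in Esm1 and Emcn it lay nearer to W3.

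The closest genes to the lead Ehd3 probe were Dkk3 (r = 0.90), the amino acid transporter gene Slc7a7 (0.88), Ces1e (0.88), Abca13 (0.86) and Egfl7 (0.86). Dkk3, a secreted glycoprotein of the Dickkopf family, lay at 0.13, 0.40, -0.05 and 0.33. Cd34 had an r of 0.80 with Ehd3 and of 0.54 with Podxl, and Esm1 one of 0.81 and 0.63. The pairs were closer for Fbln5, at 0.78 and 0.77, for Igfbp3, at 0.75 and 0.74, and for Emcn, at 0.72 and 0.67 over 15 arrays. Whether the members differ in these values was not tested. Synpo had an r of 0.12 with Ehd3 and of -0.29 with Podxl. The closest genes to Npnt were Pdzk1 (r = 0.90), Braf (0.85), Atp6ap1 (0.83, over 15 arrays), Irak1 (0.83) and Rtn3 (0.82). None of these 5 was called in the 5-kidney test. Pdzk1, a scaffold of brush border transporters, lay at 0.10, 0.06, 0.09 and -0.21, on the positive side of W5 in W1 to W3, where Npnt was negative.

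Genes near each of the 3 in the genome were read as well, as the nearest named gene with a tested probe on each side in the GRCm38.p6 gene table. Only Mkln1 directly adjoined its member. Between the others and their members lay 5 (Aimp1) to 13 (Lbh) further genes. None of the 6 was called in the 5-kidney test. Beside Podxl, Mkln1 lay at 0.12, 0.09, 0.03 and 0.04 and 1700012A03Rik at -0.01, -0.17, -0.18 and -0.03, with limma adjusted p = 0.835 and 0.669. Beside Ehd3, Lbh ranged over 0.35 and Dpy30 over 0.35, and beside Npnt, Aimp1 ranged over 0.38 and Ppa2 over 0.29. The order of W2 and W4 before the others, seen for Podxl and the lead Ehd3 probe, was shown by none of their 4 neighbours.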

How the data were processed

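RNA of 16 kidney hybridisations was read on spotted two-colour arrays. The authors deposited log2 ratios between channels, taken on mean intensities after background subtraction and scaled so that the median ratio was 1, per the labels. The base was settled from the values: 1.55% to 4.90% of the values of an array were log2 of ratios of whole numbers up to 12, against at most 0.0342% under natural logs. Under logs to base 10 it was at most 0.123%. An array had values for 80.2% to 91.1% of its probes. The dye of each channel, the numerator and why some cells are empty: not given in the sources used here.

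Probes with at least 3 values in each mouse (15715) were fitted with limma 3.58.1 in R 4.3.3, with 4 mouse coefficients and a gene-specific dye term. Moderated F tests covered 5 kidneys and W1 to W4, and 4 mouse means were tested against 0 for W5. Benjamini-Hochberg adjustment ran across every tested probe, with calls at an adjusted p under 0.05. The fit was tested on simulated data. Turning of signs rests on the labelled channels: before turning, arrays of a mouse had a correlation across probes of 0.16 to 0.36 in the same orientation and of -0.17 to 0.084 in opposite orientations. The medians were 0.28 and -0.061. Between different mice the correlations were 0.015 to 0.39 (median 0.18) and -0.15 to 0.14 (median -0.024).

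The genes and lists were chosen with earlier results of these data known. Named genes are the called members of the glomerular, partner and relative lists, the widest-ranging others, the closest 5 by r, and neighbours. The lead probe has most values, then the first identifier. For arrays, the number of hybridisations and animals limits the precision. The alternatives tried changed the dye term, missing-value filter, scaling, centring, weights, signs, array or mouse left out, array number as a block, and probes per gene.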

Additional observations from a re-analysis of the deposited data

Results flagged for a closer look

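In the second Ehd3 probe, array 2 of W2 read 0.36 while the other arrays of that mouse read 0.03 to 0.05. The gap to the nearest array was 0.93 of the whole range of the 4 arrays, past Dixon's critical value for 4 values. Of 19 groups of 4 values examined for the 3 genes this was the only one to pass, and chance alone passes about 1 in 20. The array values examined still held the dye term. With that term taken out, arrays 1 to 4 of W2 read 0.14, 0.27, 0.12 and -0.05, so the flag depends on it.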

How the results depend on the processing

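Of 15715 probes, 629 were called over 5 kidneys, 110 among W1 to W4 and 47 for W5 against its littermates, and the calls of single mice against W5 summed to 902. Without the dye term the counts over 5 kidneys, among W1 to W4 and against W5 were 403, 62 and 567. With the deposited signs left as they are they were 23, 0, 213 and 11, and 0 of the glomerular list were called, against 7. The ranges then were 0.26 for Podxl, 0.23 for the lead Ehd3 probe and 0.20 for Npnt. Podxl then lay at -0.065, -0.066 and -0.26 in W1, W2 and W4, and Npnt at 0.15, 0.20, 0.035 and 0.12 in W1 to W4. This setting mixes kidney and channel by construction; for other settings the cause was not tested. One lead probe per gene gave 383 calls over 5 kidneys, from fewer probes, and array weights 240 among W1 to W4. For W5, values on all 4 arrays gave 126, on at least 2 arrays 24, a common spread per array 79, and leaving out the 2 noisiest arrays 26. Without mouse W1 the counts were 366, 52, 25 and 458, and without mouse W2 331, 55, 15 and 479. Among the remaining littermates, 50 were called without mouse W3 and 63 without mouse W4. The Podxl range was 0.47 without mouse W2, and the Npnt range 0.19 without mouse W4.

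Leaving out 1 array gave 468 to 692 calls over 5 kidneys, 70 (without array 2 of W3) to 120 among W1 to W4, 38 to 87 for W5, 685 to 1057 against W5, and 6 to 8 in the glomerular list. Without arrays 1, 2, 3 or 4 of W4 the W5 count was 87, 73, 77 and 76. The Podxl range was 0.63 to 0.72, that of the lead Ehd3 probe 0.38 to 0.52, that of the second 0.22 to 0.40 in the 13 settings that could be fitted for it, and that of Npnt 0.29 to 0.30. Array numbers did not pair the samples: same-numbered residuals correlated at -0.25 to 0.13, and 1 of 24 pairs passed 0.1. With the array number as a replicate block the counts were 591, 97, 49 and 912, with 7 in the glomerular list. Without the 2 noisiest arrays, both of W4 and 1 of them empty for the second Ehd3 probe, its range was 0.52 against 0.26. One reference animal and 4 hybridisations a mouse limit these values.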
